A study of Emberiza melanocephala with 12 samples.

Results

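The liver transcriptome of photostimulated migratory (M) blackheaded buntings was compared between the early period of the day (M early, at ZT1, ZT5 and ZT9) and the late period (M late, at ZT13, ZT17 and ZT21), where ZT is the time in hours after lights on. The M birds were adult males that had been moved from short to long days, were housed singly, and had shown restlessness at night before their livers were taken. One bird was sampled at each time, so the 3 times of a period stand as its replicates and the difference between birds cannot be told apart from the difference between times. The ZT13 bird was sampled in the light, as were all M early birds, and the ZT17 and ZT21 birds in the dark. The 6 M livers are part of a series of 12, in which the other 6 came from singly housed adult males of the photorefractory non-migratory (nM) state, reached after a prolonged stay on long days, and were taken at the same 6 times. Genes were kept when their FPKM (mapped fragments scaled by transcript length and by the size of the library) exceeded 0.1 in at least 5 of the 6 M libraries, which held for 9801 of 18284 genes. Of these, 8831 exceeded 0.1 in all 6 M libraries and 970 in exactly 5, and in 710 of the 970 the low library was ZT17. CNTN4 lay just inside this limit, with a second-lowest value of 0.101 FPKM, and AMY1A just outside it, with 0.0988 FPKM.

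In vertebrate liver the circadian clock is a feedback loop. Activators of the ARNTL and CLOCK or NPAS2 type switch on the PER and CRY genes, whose proteins then repress the activators, and NR1D2, BHLHE40, TEF, HLF and NFIL3 pass the rhythm on to other genes. Many liver functions with a daily course, among them fat and sterol synthesis, glycogen storage, bile acid synthesis and the oxidation of drugs and steroids, are set by this clock together with the time of feeding. Fat made in the liver is the fuel that a migratory songbird stores before its night flights.

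No gene passed the test between M early and M late. With limma on log2(FPKM + 1), an adjusted p below 0.1 and a difference above 0.1 in size, 0 of 9801 genes (0%) were called with all 6 libraries, where 266 had an unadjusted p under 0.05 (150 with higher and 116 with lower values in M early) and the smallest adjusted p was 0.727. Without ZT17 the count was again 0 of 9801 (0%), with 383 genes at an unadjusted p under 0.05 (206 with higher and 177 with lower values in M early) and a smallest adjusted p of 0.348. An ordinary least squares fit per gene also called 0 genes, with 310 and, without ZT17, 408 at an unadjusted p under 0.05. If no gene differed, a share of 0.05 of the 9801 genes would be expected under that limit. Each of these counts was below that share. An exact permutation test of 3 against 3 birds cannot give a two-sided p below 0.1. The values below are therefore a description of 6 birds, and each difference is M early minus M late on the log2(FPKM + 1) scale, which understates the change of genes of low FPKM.

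The M ZT17 library stood apart from the others. Its FPKM values summed to 6988410, against 1542830 to 2793010 in M early and 1563350 and 1831360 in the other M late libraries, and 674 of the tested genes were listed at 0 in it, against 22 to 63 in the other 5. It held the highest of the 6 M values for 37.2% of genes and the lowest for 42.7%. The median standard error of the difference was 0.474 with it and 0.326 without it, and the sign of the difference turned in 2776 genes (28.3%) when it was left out. RNA of all birds was extracted in one batch and sequenced in one lane, and no batch is named that would divide these libraries. The study lists more sequenced reads for every M early library than for any M late library, with ZT17 between the other late ones. It lists more reads for every nM early library than for any nM late library too, though nM ZT9 had only slightly more than nM ZT17 and nM ZT21. Read depth and period therefore cannot be told apart in either state, nor in an order that both states share. It also lists a lower base quality for M ZT9 than for the other 11 libraries. The tables used here hold no counts per gene, so no counting interval is given.

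**Figure D1:**
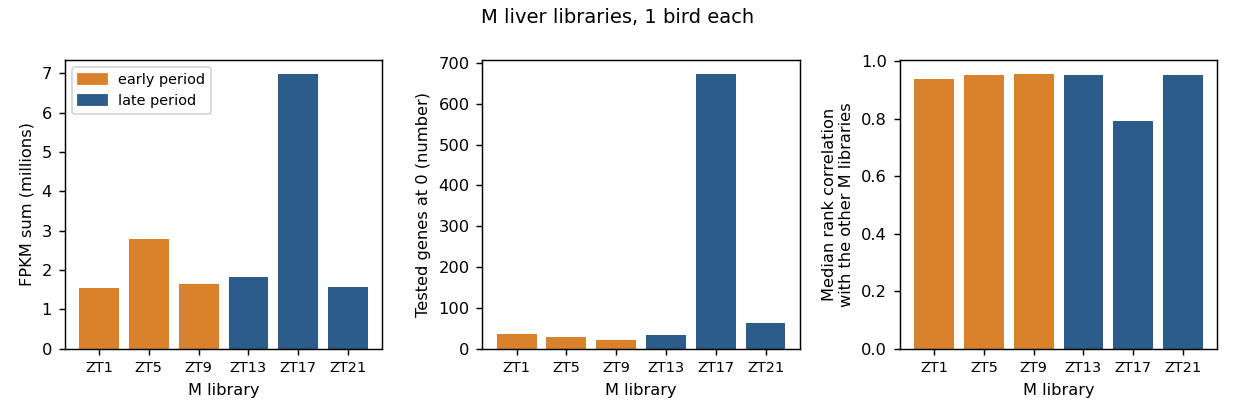
Measures of the 6 M libraries in order of ZT, with the 3 M early libraries in orange and the 3 M late libraries in blue: the sum of FPKM, the number of tested genes listed at 0, and the median rank correlation of each library with the other 5. The ZT17 library stands apart in each, at 6988410 FPKM, 674 genes and 0.791.

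Genes whose 3 early values all lay above, or all lay below, the 3 late values were counted as not overlapping. Every M early library was above every M late library in 690 genes (7.04%) and below in 505 (5.15%). Over both directions this was 12.2% of genes, where 3 against 3 exchangeable birds separate with a probability of 0.1. Whether the share exceeds that probability was not tested. Without ZT17 the counts were 954 (9.73%) and 859 (8.76%), with 2 late birds in place of 3, which separate more easily by construction. Over both directions this was 18.5%. The probability for 3 against 2 exchangeable birds is higher than 0.1, so 18.5% cannot be read as more separation than 12.2%. Of the genes that did not overlap, 57.7% lay above, but 44.3% after scaling all libraries to equal totals and 45.8% after quantile normalization, so the balance between directions turns with the scaling. Scaling to equal totals moved the median difference of all genes to 0.35 (-0.12 without ZT17). Only 4102 of the 9801 genes carry a symbol, 3876 of them from the study's table of genes called cyclic in these same libraries, so the named genes are a selected share and their daily course is not independent evidence. Among genes with a symbol, 465 lay above (11.3%) and 320 below (7.80%), and without ZT17 537 (13.1%) and 439 (10.7%). These shares are the background for every list below, and several lists lay near them.

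PER2, a core repressor of the clock, had the smallest p of the named genes with all 6 libraries, and METTL8, described below, had a smaller one without ZT17 (unadjusted p = 8.9e-05 against 9.67e-05 for PER2 from limma). It stood at 6.64, 8.58 and 5.32 FPKM at ZT1, ZT5 and ZT9, against 0.630, 0.191 and 0.356 FPKM at ZT13, ZT17 and ZT21. The M early mean was 6.85 ± 1.64 FPKM (SD, n = 3) and the M late mean 0.392 ± 0.222 FPKM (SD, n = 3), and no late bird came near the lowest early one. The difference was 2.49 (standard error 0.34, adjusted p = 0.727 from limma), and 2.38 without ZT17 (standard error 0.29, adjusted p = 0.348 from limma). In the nM birds, which the M comparison did not use, PER2 was at 13.9, 28.9 and 13.6 FPKM in nM early, against 0.813, 0.633 and 1.51 FPKM in nM late. That nM difference of 3.26 was called (standard error 0.37, adjusted p = 0.07 from limma), among 5 genes called of 9801 in the nM state (0.0510%), and the 2 states' differences did not differ past the threshold (M minus nM -0.77, standard error 0.50, adjusted p = 0.727 from limma, and -0.88, adjusted p = 0.991, without M ZT17).

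The other clock genes mostly overlapped between M early and M late. Of 14 tested members of the clock list, PER2 and CRY2 lay above in every M early library and none lay below, and without ZT17 the counts were 2 above and 1 below. Among all genes with a symbol 11.3% lay above and 7.80% below (13.1% and 10.7% without ZT17), and the clock counts were near these shares. CRY2, a partner of the PER repressors, was at 28.5, 31.1 and 25.4 FPKM in M early, against 24.5, 2.79 and 19.5 FPKM in M late. Its ZT9 and ZT13 birds lay close together, and its difference was 1.22 with ZT17 and 0.36 without it. BHLHE40, a repressor that acts on the same promoters, was at 31.9, 21.4 and 14.3 FPKM in M early, against 3.94, 5.98 and 15.97 FPKM in M late. Its early and late values overlapped through ZT21 alone, with a difference of 1.42 (1.29 without ZT17). NPAS2, an activator paired with ARNTL, ran the other way, at 0.973, 0.512 and 2.52 FPKM in M early against 7.63, 4.63 and 1.75 FPKM in M late, a difference of -1.22 (-1.16 without ZT17). In the nM birds the same 2 genes did not overlap between early and late birds, BHLHE40 with a difference of 3.33 and NPAS2 with one of -3.23.

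Several clock genes turned within a period, which a comparison of 3 early with 3 late birds does not show. PER3 was at 19.4, 5.77 and 1.35 FPKM in M early, against 0.382, 0 and 27.1 FPKM in M late. NR1D2, a nuclear receptor that represses ARNTL, took the same course with 58.6, 13.2 and 4.01 FPKM in M early, against 2.22, 2.34 and 30.1 FPKM in M late. Both were low from ZT9 to ZT17 and high at ZT21 and ZT1, and without ZT17 their differences were 0.14 and 0.69. CRY1, the other cryptochrome repressor, was at 15.3, 53.9 and 65.4 FPKM in M early, against 72.3, 12.9 and 8.04 FPKM in M late. NFIL3, a repressor of the same sites that TEF and HLF use, was at 51.3, 53.1 and 72.6 FPKM in M early, against 104.9, 26.8 and 16.5 FPKM in M late. The highest value of CRY1 and of NFIL3 stood at ZT13, while the other late birds of both genes lay below their early median. For the activator TEF the M early birds had 44.02, 26.02 and 12.5 FPKM, against 10.3, 21.4 and 29.4 FPKM in M late, an overlap of nearly the whole range.

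Of the other clock members, HLF had 122.4, 44.8 and 38.6 FPKM in M early, against 51.6, 11.01 and 35.3 FPKM in M late, and ARNTL2, a paralog of ARNTL, had 7.34, 3.32 and 5.18 FPKM, against 4.91, 1.77 and 5.87 FPKM. CSNK1E, a kinase of the PER proteins, overlapped with and without ZT17. FBXL21, an F-box protein that acts on CRY stability, overlapped with all 6 libraries and did not without ZT17, at 23.2, 14.8 and 13.6 FPKM in M early against 31.2 and 24.5 FPKM in M late. ARNTL itself is listed at 0 in all 6 M libraries and was not tested. Such an exact 0 may stand for an estimate that failed, and the study names ARNTL among its cyclic core clock genes. The median difference of the 14 members was 0.86, against 0.05 over all genes tested, and 0.41 without ZT17, against 0.03. ZT17 was the lowest of the 6 M libraries in 7 of the 14.

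**Figure D2:**
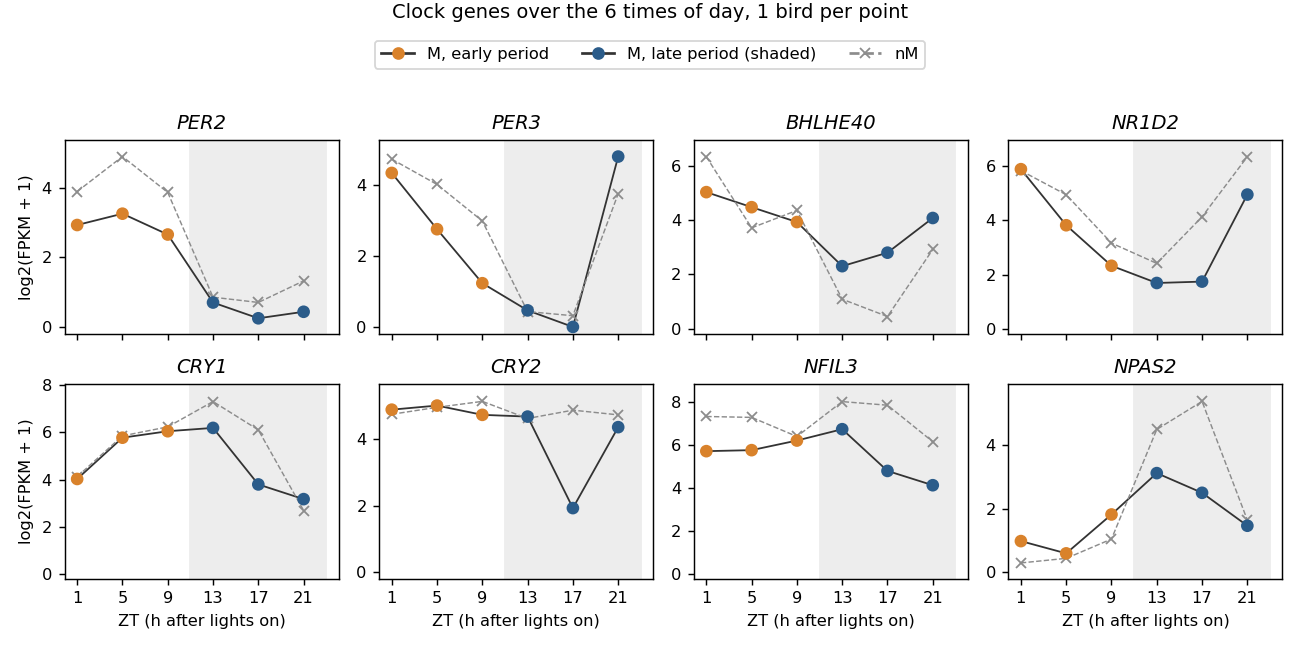
Log2(FPKM + 1) of 8 clock genes against ZT in hours after lights on, 1 bird per point: filled circles joined by a line are M birds (orange in the early period, blue in the shaded late period) and crosses on a dashed line are nM birds. PER2 separates early from late birds in both states, while PER3 and NR1D2 return to high values at ZT21 and CRY1 and NFIL3 are highest at ZT13.

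Among enzymes that oxidise and conjugate drugs, steroids and other small molecules, 5 of 22 tested lay above in every M early library and 1 below, and 7 and 1 without ZT17. Of all genes with a symbol 11.3% lay above and 7.80% below (13.1% and 10.7% without ZT17). The median difference of the list was 0.33 with ZT17 and 0.61 without it. CYP3A5, a cytochrome P450 that oxidises drugs and steroids, was at 226.9, 240 and 200.4 FPKM in M early, against 62.3, 46.8 and 66.99 FPKM in M late. Its means were 222.4 ± 20.2 and 58.7 ± 10.6 FPKM (SD, n = 3 each), with no overlap. The difference was 1.92 (standard error 0.32, adjusted p = 0.727 from limma), and 1.76 without ZT17 (standard error 0.26, adjusted p = 0.63 from limma).

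CYB5A, the cytochrome b5 that passes electrons to P450 enzymes, was at 1095, 1921 and 1755 FPKM in M early, against 707.9, 360.7 and 815.2 FPKM in M late. ALDH1A1, a retinaldehyde dehydrogenase, was at 245.5, 362.4 and 381.6 FPKM in M early, against 185.7, 95.1 and 168.5 FPKM in M late. Their lowest late bird was ZT17, and their differences without it were 1.02 and 0.87. UGT2A1, which joins glucuronic acid to such compounds, and CYP4V2, a fatty acid hydroxylase, did not overlap either, with differences of 0.77 and 0.91 without ZT17. MGST1, a microsomal glutathione transferase named here after its values were seen, was the member below, at 2239, 2250 and 2693 FPKM in M early against 2743, 7166 and 2712 FPKM in M late, where ZT9 and ZT21 almost met.

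CYP2C8-2, a further P450 gene, was at 2569, 988.2 and 760.9 FPKM in M early, against 65.6, 85.8 and 360.7 FPKM in M late. It was picked among genes without overlap, with a difference of 3.28 (3.01 without ZT17), but the birds within a period differed several-fold. Gene symbols with a numbered copy, such as this one, belong to families whose members can share reads, so its level is less certain than that of a single gene. HSD17B11, a dehydrogenase of lipid droplets, was at 1505, 2172 and 1606 FPKM in M early, against 593.7, 397.7 and 844.5 FPKM in M late, a difference of 1.57 (1.29 without ZT17). MOSC1, a molybdenum enzyme of mitochondria, was at 1484, 1520 and 1434 FPKM in M early, against 417.2, 78.8 and 657.0 FPKM in M late. The early birds of MOSC1 were close together and ZT17 lay far below the other late birds, and its difference was 2.40 with ZT17 and 1.496 without it.

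**Figure D3:**
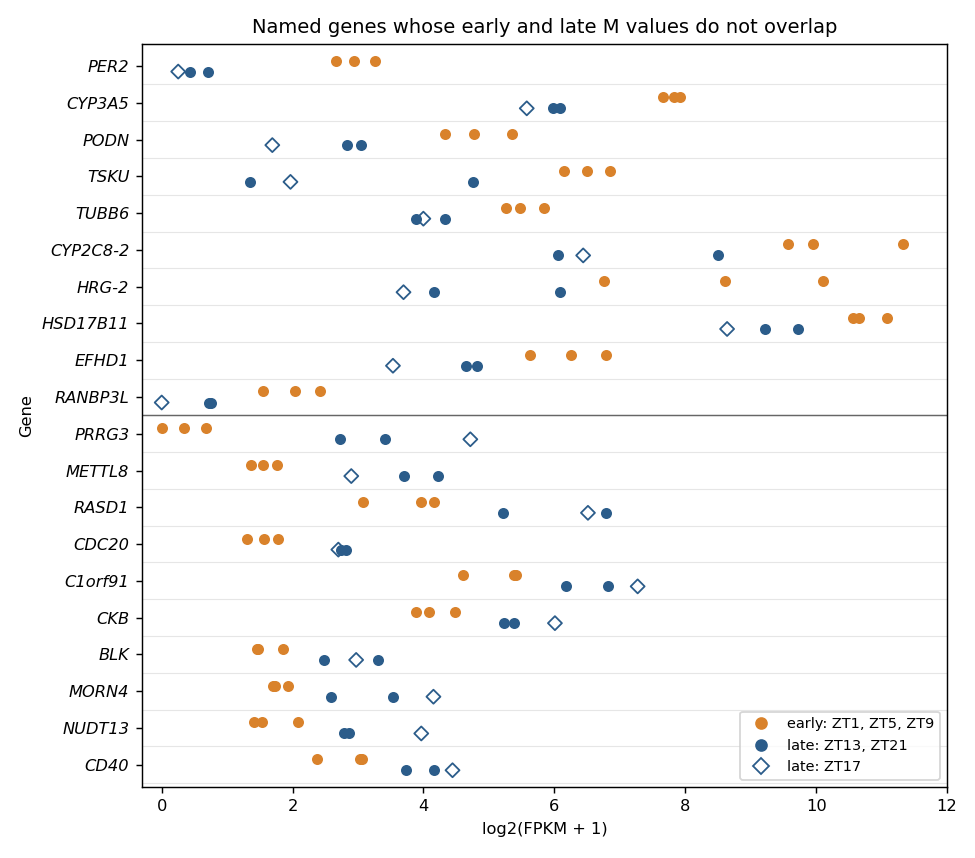
Log2(FPKM + 1) per M library of the 10 named genes with the smallest p in each direction among genes whose early and late values do not overlap: M early birds in orange, M late birds in blue, and the ZT17 bird as an open diamond. Values of the upper 10 genes are higher in M early and those of the lower 10 are lower, and none passed the test (adjusted p = 0.727 for each from limma).

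Fat metabolism gave values in both directions. Of 16 tested genes of fatty acid oxidation and ketone body formation, 4 lay above in every M early library and 2 below, and 5 and 2 without ZT17, with a median difference of 0.49 (0.32 without ZT17). The shares over all genes with a symbol were 11.3% above and 7.80% below (13.1% and 10.7% without ZT17). ACSL5, which activates fatty acids, was at 521.3, 544.9 and 678.2 FPKM in M early, against 416.8, 103.9 and 255.3 FPKM in M late. ACADL, a long-chain acyl-CoA dehydrogenase, was at 429.4, 373.6 and 485.7 FPKM in M early, against 238.5, 164.1 and 360.3 FPKM in M late. In ACADL the ZT21 bird came close to the lowest early one, and its difference without ZT17 was 0.54.

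HADH, the next-to-last enzyme of the oxidation spiral, named after its values were seen, was below, at 230.8, 180.4 and 258.4 FPKM in M early against 362.9, 316.2 and 286.0 FPKM in M late. The nM birds had the same order for HADH, at 134.8, 139.7 and 194.04 FPKM in nM early against 620.7, 696.1 and 476.7 FPKM in nM late. That nM difference was -1.93 (adjusted p = 0.308 from limma), where the M difference was -0.53 (-0.54 without ZT17).

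Of 17 tested genes of fat synthesis and export, ELOVL6, which lengthens saturated fatty acids, was the only one not overlapping. It was at 3734, 4183 and 2350 FPKM in M early, against 1413, 234.9 and 1998 FPKM in M late, and its ZT9 and ZT21 birds lay nearest. FASN, the fatty acid synthase, was at 3864, 3139 and 1603 FPKM in M early, against 1401, 220.4 and 3077 FPKM in M late, so that ZT21 stood with the early birds. ELOVL2, which lengthens polyunsaturated fatty acids, was at 95.1, 96.2 and 370.0 FPKM in M early, against 481.9, 481.9 and 308.9 FPKM in M late, overlapping through ZT9 and ZT21. Its difference was -1.46 (-1.35 without ZT17), and in the nM birds its early and late values did not overlap, with a difference of -4.36. The list's median difference was 0.14 with ZT17 and 0 without it when rounded to 2 decimals. Over all genes with a symbol 11.3% lay above and 7.80% below (13.1% and 10.7% without ZT17). CD36, a membrane carrier of fatty acids, was at 445.5, 238.4 and 256.2 FPKM in M early, against 134.02, 5.5 and 149.02 FPKM in M late, a difference of 2.57 that was 1.08 without ZT17.

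Glycogen and glucose genes lay above where they did not overlap. Of 19 tested, 4 lay above in every M early library (5 without ZT17) and none below, with a median difference of 0.43 (0.22 without ZT17). Among all genes with a symbol 11.3% lay above and 7.80% below (13.1% and 10.7% without ZT17). PPP1R3B, which targets a phosphatase to glycogen, was at 499.3, 192.4 and 198.2 FPKM in M early, against 107.9, 17.02 and 107.9 FPKM in M late. UGP2, which makes the UDP-glucose used for glycogen, was at 648.1, 594.6 and 345.2 FPKM in M early, against 324.7, 50.6 and 286.5 FPKM in M late. GBE1, the glycogen branching enzyme, was at 150.6, 149.3 and 212.9 FPKM in M early, against 140.1, 6.05 and 82.6 FPKM in M late. The gap between early and late birds was widest in PPP1R3B and narrow in UGP2 and GBE1, with differences without ZT17 of 1.30, 0.74 and 0.64. PFKFB2, a kinase that speeds glycolysis, had a difference of 0.87 (0.77 without ZT17), and its early and late values did not overlap in the nM birds either, with a difference of 0.89.

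GATM and CKB, both taken from the top-ranked genes and not from a list, lay on opposite sides. GATM, which makes the precursor of creatine, was at 1136, 986.1 and 2852 FPKM in M early, against 805.5, 100.1 and 201.8 FPKM in M late, a difference of 2.53 (1.87 without ZT17). CKB, the brain-type creatine kinase, was at 13.7, 15.9 and 21.4 FPKM in M early, against 36.5, 63.4 and 40.7 FPKM in M late, a difference of -1.39 (-1.16 without ZT17). Both were picked among genes without overlap in M, and ZT17 was the most distant late bird in both.

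In the list of insulin and fasting signals, 3 of 18 tested genes lay above in every M early library and 1 below (3 and 2 without ZT17). Over all genes with a symbol the shares were 11.3% above and 7.80% below (13.1% and 10.7% without ZT17). PPARGC1A, a coactivator of fasting genes, was at 4.27, 0.895 and 1.46 FPKM in M early, against 0.739, 0 and 0.70 FPKM in M late, while its relative PPARGC1B was at 1.35, 1.68 and 1.34 FPKM, against 1.96, 4.82 and 2.43 FPKM. The 2 coactivators lay on opposite sides, with differences without ZT17 of 0.76 and -0.38. Sterol synthesis had 1 of 10 tested genes above and none below, and without ZT17 HMGCS1, which makes HMG-CoA, was below at 312.5, 149.3 and 286.6 FPKM in M early against 777.8 and 549.3 FPKM in M late (187.2 FPKM at ZT17). Bile acid genes had 1 of 11 above with and without ZT17. CYP7A1, the rate-limiting enzyme of bile acid synthesis, was at 73, 108.5 and 51.3 FPKM in M early, against 48.2, 3.43 and 87.1 FPKM in M late, and its difference of 1.49 was 0.19 without ZT17.

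TSKU, PODN and HRG-2 were among the top-ranked genes with higher values in M early and are not members of the plasma protein list. TSKU, a small leucine-rich protein secreted by the liver, was at 114.5, 70.1 and 89.2 FPKM in M early, against 26.1, 2.91 and 1.55 FPKM in M late. PODN, a matrix protein of the same family, was at 39.7, 26.2 and 19.1 FPKM in M early, against 6.12, 2.23 and 7.22 FPKM in M late. HRG-2, named for the histidine-rich glycoprotein of plasma, was at 106.8, 1095 and 390.4 FPKM in M early, against 16.9, 11.9 and 67.04 FPKM in M late. All 3 were picked among genes whose early and late M values do not overlap. Their differences without ZT17 were 3.44, 1.88 and 3.36, but the early birds of HRG-2 were themselves far apart. FN1, fibronectin, was at 253.9, 286.7 and 276.1 FPKM in M early, against 171.3, 117.7 and 137.8 FPKM in M late, and FGB, a fibrinogen chain, at 5833, 5109 and 3363 FPKM, against 2290, 2020 and 3008 FPKM. Of 16 tested plasma protein genes 4 lay above and 1 below (5 and 1 without ZT17). The shares over all genes with a symbol were 11.3% and 7.80% (13.1% and 10.7% without ZT17).

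The genes with lower values in M early have varied roles. METTL8, a methyltransferase of mitochondrial tRNA, was at 1.58, 1.93 and 2.40 FPKM in M early, against 17.7, 6.45 and 12.1 FPKM in M late. The difference was -2.05 (standard error 0.42), and -2.40 without ZT17 (standard error 0.29, adjusted p = 0.348 from limma), and ZT17 was the late bird nearest to the early ones. In the nM birds METTL8 did not overlap either, with a difference of -1.46. PRRG3, a membrane protein with a Gla domain, was at 0.607, 0.267 and 0 FPKM in M early, against 5.63, 25.3 and 9.70 FPKM in M late, a difference of -3.28 (standard error 0.55), and -2.73 without ZT17 (standard error 0.34, adjusted p = 0.348 from limma). RASD1, a Ras-related protein that glucocorticoids induce, was at 7.47, 14.5 and 16.8 FPKM in M early, against 109.3, 90.3 and 36.3 FPKM in M late. Its lowest late bird, ZT21, had more than the highest early bird, ZT9, and its difference was -2.44 (-2.27 without ZT17). METTL8, PRRG3 and RASD1 were picked among genes without overlap in M.

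Cell cycle genes were lower in M early where they did not overlap. Of 22 tested, 6 lay below in every M early library and none above, with and without ZT17, and the median difference was -0.53 (-0.33 without ZT17). The share of all genes with a symbol that lay below was 7.80% (10.7% without ZT17). CDC20, which starts the exit from mitosis, was at 1.46, 1.97 and 2.43 FPKM in M early, against 6.06, 5.49 and 5.71 FPKM in M late. The late birds of CDC20 lay close together, ZT17 among them, and the difference was -1.21 with ZT17 (standard error 0.31) and -1.23 without it (standard error 0.27). PLK1, a mitotic kinase, was at 0, 0.222 and 0.796 FPKM in M early, against 2.24, 1.90 and 1.38 FPKM in M late, and SMC4, a condensin subunit, at 1.03, 1.22 and 1.54 FPKM, against 2.95, 3.201 and 2.38 FPKM. RFC4 and PCNA, the clamp loader and the sliding clamp of DNA replication, and CDC25A, a phosphatase that opens S phase, were the others. PCNA was at 24.5, 33.5 and 36.9 FPKM in M early, against 37.5, 189.5 and 41.1 FPKM in M late, so that ZT9 and ZT13 almost met. In the nM birds none of the 6 genes separated early from late birds, with differences between -0.38 and 0.09. The 6 were taken for their separation in M, and only 8.85% of genes with a symbol lay below in nM. The limma interaction called none of them, so the pattern cannot be called particular to M. Most of these transcripts were at a few FPKM, and in bulk liver fewer cells of a type and less RNA per cell cannot be told apart.

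Immediate early genes, which respond within minutes to signals at the cell surface, were also lower in M early where they did not overlap. Of 12 tested, 5 lay below in every M early library (6 without ZT17) and none above, where 7.80% of all genes with a symbol lay below (10.7% without ZT17). EGR1 was at 3.52, 5.23 and 10.9 FPKM in M early, against 18.6, 12.6 and 18.6 FPKM in M late, a difference of -1.32 (-1.498 without ZT17). CYR61, a matrix protein of the same response, was at 4.23, 6.85 and 16.9 FPKM in M early, against 28.01, 28.5 and 20.8 FPKM in M late, a difference of -1.56 (-1.48 without ZT17). In both genes the ZT9 bird was the highest early one and lay nearest to the late birds. FOS was at 0.615, 1.24 and 1.18 FPKM in M early, against 2.88, 6.39 and 1.32 FPKM in M late. KLF2, a factor of the vessel wall, and DUSP4, a MAP kinase phosphatase named after its values were seen, made up the 5. ATF3 and BTG1 of the same list had higher means in M early and overlapped. The list's median difference was -0.19 (-0.31 without ZT17). After scaling to equal totals the list's median was 0.14, below the 0.35 of all genes.

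Some of the top-ranked genes with lower values in M early are known from lymphocytes, but they were not chosen as a list. BLK, a kinase of B lymphocytes, was at 1.78, 1.74 and 2.60 FPKM in M early, against 4.57, 6.84 and 8.87 FPKM in M late. CD40, a receptor of B cells and other antigen-presenting cells, was at 4.16, 7.13 and 7.35 FPKM in M early, against 12.2, 20.8 and 16.8 FPKM in M late. IGJ, the joining chain of secreted antibodies, was at 6.804, 10.9 and 48.97 FPKM in M early, against 71.1, 399.1 and 62.2 FPKM in M late, and IGLL1, named for an antibody light chain family, at 7.30, 25.4 and 91.4 FPKM, against 168.6, 2332 and 131.3 FPKM. These 4 were picked among genes without overlap, and their differences without ZT17 were -1.30, -1.12, -2.01 and -2.46. Read assignment within antibody gene families is uncertain. The fixed list of macrophage and leukocyte markers had 9 tested members, of which none lay above or below with ZT17, and 4 lay below without it (LCP1, CD4, CSF1R and PTPRC). Of all genes with a symbol 7.80% lay below with ZT17 and 10.7% without it, where fewer birds separate more easily by construction. With ZT17, 6 of the 9 had higher means in M early and the median difference was 0.32. Without it 2 did, TIMD4 and IL7R, and the median difference was -0.34. The summed level of the 9 was 218.7 to 304.6 FPKM in M early, against 146.6 FPKM at ZT17 and 321.9 and 349.4 FPKM in the other late birds. The part that a differing share of blood or immune cells had in these values was not tested.

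Markers of other cells were compared in the same way, and none of their members was called. Red blood cell markers had 2 tested members, CA2 and EPB42, with a summed level of 63.01 to 72.5 FPKM in M early and 14.4 to 74.8 FPKM in M late. Endothelial markers summed to 33.7 to 45.97 FPKM in M early and 36.5 to 110.7 FPKM in M late, and stellate cell markers to 182 to 330.8 and 213.7 to 640.1 FPKM, each with its highest value at ZT17. The members were divided at ZT17, which was the highest of the 6 M libraries for 4 endothelial markers and the lowest for 3. For stellate cell markers it was the highest for 3, among them TAGLN at 407.5 FPKM, and the lowest for 4. Of 7 tested endothelial markers 2 lay above (3 without ZT17) and none below, and of 7 stellate cell markers none lay above or below. Among all genes with a symbol 11.3% lay above and 7.80% below (13.1% and 10.7% without ZT17). CPA1, a digestive enzyme of the pancreas, was at 0.370, 0.583 and 1.51 FPKM in M early, against 29.8, 6.88 and 0.198 FPKM in M late. PDX1, a transcription factor of the pancreas, lay the other way and was the only one of the 3 tested members of the pancreas and muscle list without overlap, at 8.40, 12.3 and 6.77 FPKM in M early, against 3.66, 0 and 6.48 FPKM in M late. PLA2G1B, a pancreatic phospholipase that is not on that list, was at 4.09, 5.16 and 0 FPKM in M early, against 9.12, 62.95 and 13 FPKM in M late. These 3 genes were highest in different birds, CPA1 at ZT13, PDX1 at ZT5 and PLA2G1B at ZT17. Whether pancreas tissue came with any sample was not tested. Liver itself was evident in all 6 libraries, with FGG at 4135 to 7056 FPKM in M early and 3535 to 4053 FPKM in M late. The 10 tested hepatocyte markers summed to 22280 to 31010 FPKM in M early and 15670 to 23470 FPKM in M late. Of the 10 tested markers 2 lay above (3 without ZT17), FGG among them, and none below, and 7 had a positive difference (8 without ZT17). ALB, also on the hepatocyte list, failed the filter and is in neither the sums nor these counts. It is listed at 0 in M early and at high values in M late, as given below.

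The albumin gene ALB, the defining product of hepatocytes, was listed at 0 in M early at ZT1, ZT5 and ZT9, and at 20210, 34130 and 17300 FPKM in M late. In the nM birds it was at 24970, 0 and 39830 FPKM in nM early and 36840, 28650 and 21570 FPKM in nM late. A gene that every hepatocyte uses is thus listed at 0 in 4 of the 12 libraries, each of them an early one, and an exact 0 may stand for an estimate that failed, so no fold change is given. The filter leaves out ALB and every other gene at 0 in all 3 birds of a period. Of the 8483 genes not tested, 30 were above 0.1 FPKM in all 3 M early libraries and listed at 0 in all 3 M late ones. The other way round there were 3 genes. Every M late library had fewer sequenced reads than any M early one, so read depth and period cannot be told apart here either. Both counts include ZT17, and no count without it is given. Among the 30, 14 stayed under 1 FPKM in every M library, 21 were above 0 in at least 1 nM late library, ACBD7, UNQ9391 and PDGFC among them, and 5 carry a symbol. TNFAIP1, named like these 3 after its values were seen and not typical of the 30, was at 0.288, 0.594 and 0.631 FPKM in M early and listed at 0 in M late, and at 0.382, 0.571 and 0.156 FPKM in nM early and listed at 0 in nM late.

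Lists of the basic machinery of the cell had negative median differences with ZT17 that came close to 0 or shrank without it. The 18 cytosolic ribosomal protein genes had a median difference of -0.99 with ZT17 and 0.06 without it, and ZT17 was the highest of the 6 M libraries for all 18. RPS3 was at 1826, 1960 and 1359 FPKM in M early, against 1966, 13390 and 1431 FPKM in M late. Leaving out ZT17 gave 0.01 for RPS3, where the difference was -0.98 with it. The median of the 14 respiratory chain genes was -1.08 with ZT17 and -0.05 without it. That of the 21 proteasome genes was -0.85 and -0.18, that of the 13 tRNA synthetase genes -0.58 and -0.30, and that of the 11 splicing genes -0.18 and 0.11 (0.29 with ZT17 after scaling to equal totals). Of the proteasome genes 3 lay below and none above with and without ZT17, and of the tRNA synthetases 3 (4 without ZT17). The share of all genes with a symbol that lay below was 7.80%, and 10.7% without ZT17.

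Mitochondrial ribosomal protein genes had lower values in M early both with and without ZT17 where they did not overlap. Of 20 tested, 6 lay below in every M early library with and without ZT17, and none above, with a median difference of -0.96 (-0.25 without ZT17). Of all genes with a symbol 7.80% lay below (10.7% without ZT17). MRPS31 was at 48.8, 37.6 and 56.3 FPKM in M early, against 85.1, 306.9 and 87.2 FPKM in M late, a difference of -1.47 (-0.86 without ZT17). MRPS35 was at 51.5, 58.4 and 48.4 FPKM in M early, against 79.2, 258.7 and 79.2 FPKM in M late, a difference of -1.15 (-0.58 without ZT17). ZT13 and ZT21 were close to each other in both genes and above all early birds. In the nM birds 2 of the 6 did not overlap, in opposite directions. MRPS35 had an nM difference of -0.74, the direction of M, and MRPL45 had 0.48, the reverse.

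Chaperone genes mostly overlapped. Of 21 tested, 4 lay above in every M early library and 2 below (4 and 3 without ZT17), with a median difference of 0.49 (0.30 without ZT17). Over all genes with a symbol 11.3% lay above and 7.80% below (13.1% and 10.7% without ZT17). HSPH1, a cochaperone of HSP70, was at 49.1, 9.22 and 10.2 FPKM in M early, against 6.62, 0.787 and 4.07 FPKM in M late, and DNAJB9, a chaperone of the endoplasmic reticulum, at 43.5, 20.5 and 22.4 FPKM, against 10.03, 3.04 and 12.3 FPKM. The ZT1 bird was far above all others in HSPH1, as it was in CHORDC1, at 81.8 FPKM against 4.46 to 17.3 FPKM in the other 5. CIRBP, an RNA-binding protein induced by cold, was one of the 2 below, at 77.7, 89.5 and 100.7 FPKM in M early, against 122.8, 185.5 and 130.5 FPKM in M late, a difference of -0.69 (-0.51 without ZT17). Autophagy genes had 1 of 20 tested above and 1 below (2 and 2 without ZT17), the first being ULK2, a kinase that starts autophagy, at 513.1, 306.5 and 245.2 FPKM in M early against 213.9, 14.8 and 99.1 FPKM in M late.

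**Figure D4:**
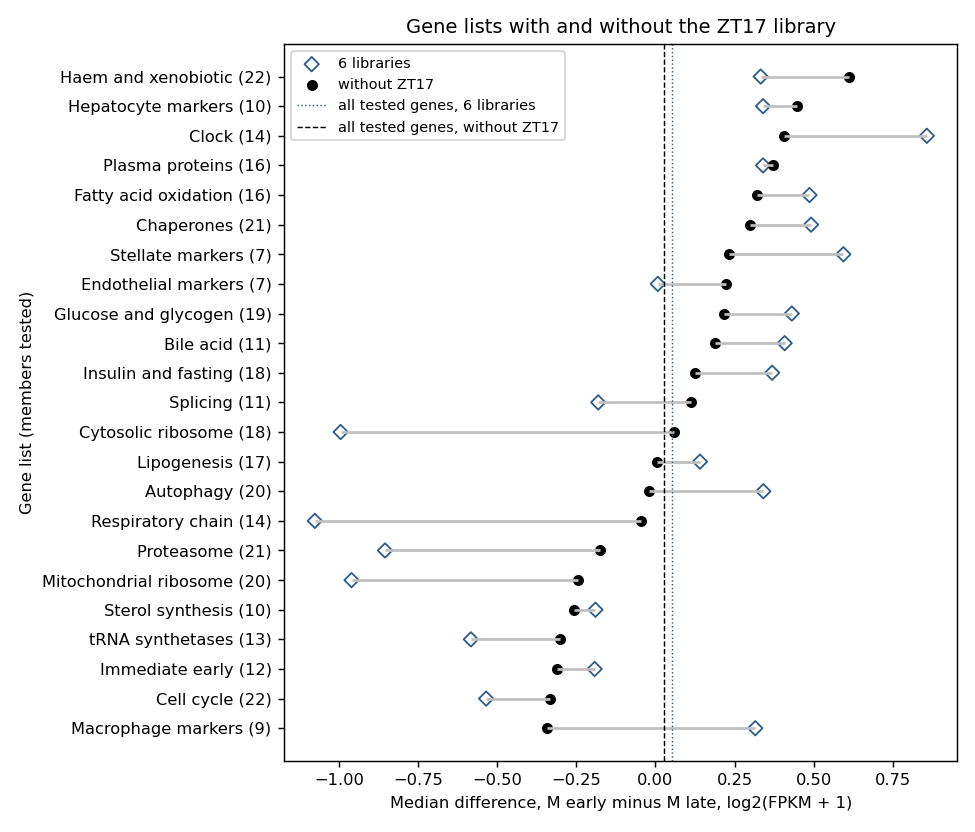
Median difference of each gene list, M early minus M late on the log2(FPKM + 1) scale, with all 6 libraries (open diamonds) and without ZT17 (filled circles), and the median over all tested genes as dotted and dashed lines. The cytosolic ribosome list goes to 0.06 without ZT17 and the respiratory chain list to -0.05, while the haem and xenobiotic list is at 0.61.

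The difference between the periods was set beside that of the nM birds to see what was shared by the states. In both states the early libraries had more sequenced reads than the late ones. Complete separation occurred in 1325 of the 9801 genes (13.5%) in the nM state and in 1195 (12.2%) in the M state. Without M ZT17 it occurred in 1813 (18.5%), where fewer birds separate more easily by construction. Of the genes above in M early 9.13% were above in nM early too, where 6.86% of all genes were, and of those below 7.33% were below, where 6.66% of all genes were. Of the 10 named genes with the smallest p in each direction, 8 of the 10 above had the same sign in nM, 4 of them without overlap (PER2, TUBB6, HRG-2 and RANBP3L), and 5 of the 10 below, 1 of them without overlap (METTL8). Of all genes above in M early 57.8% had the same sign in nM, and of all below 59%, where 50.3% of all tested genes had a positive difference in nM. Among genes with a symbol 9.85% lay above and 8.85% below in nM without overlap. TUBB6, a beta tubulin, was at 37.3, 56.4 and 43.5 FPKM in M early, against 19.1, 14.98 and 13.7 FPKM in M late, a difference of 1.46 (1.42 without ZT17). CYP3A5 overlapped in nM, at 209.0, 243.9 and 124.6 FPKM in nM early against 148.2, 38.2 and 30.0 FPKM in nM late, with a difference of 1.72.

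No gene passed the test of a difference between periods that itself differed between the states. The limma interaction called 0 of 9801 genes (0%), with 440 at an unadjusted p under 0.05 and a smallest adjusted p of 0.13, and without M ZT17 also 0 (0%), with 375 and a smallest adjusted p of 0.459. Ordinary least squares called 0 as well, with 386 at an unadjusted p under 0.05. Each of these counts was under the share of 0.05 of tested genes that is expected if no gene differed. GATM was among the named genes of the interaction. In the nM birds it was at 428.7, 476.2 and 670.2 FPKM in nM early, against 1072, 1388 and 1170 FPKM in nM late, the reverse of the M order. Its M difference exceeded the nM one by 3.75 (standard error 0.91, adjusted p = 0.727 from limma), and by 3.09 without M ZT17 (adjusted p = 0.991 from limma). ADSL, an enzyme of purine synthesis, was at 422.4, 800.7 and 411.5 FPKM in M early, against 985.4, 3662 and 995.7 FPKM in M late. Its nM birds had 1755, 1207 and 810.3 FPKM in nM early, against 541.8, 460.8 and 739.7 FPKM in nM late. M and nM birds were each without overlap and in opposite order, and the M minus nM contrast was -2.63 (-2.004 without M ZT17, adjusted p = 0.991 from limma). SHMT1, a folate enzyme that uses serine, was at 258.4, 777.5 and 392.7 FPKM in M early, against 445.7, 862.8 and 342.4 FPKM in M late, with an overlap, where the nM birds had 834.1, 544.9 and 379.7 FPKM in nM early, against 74.2, 67.1 and 189.4 FPKM in nM late.

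**Figure D5:**
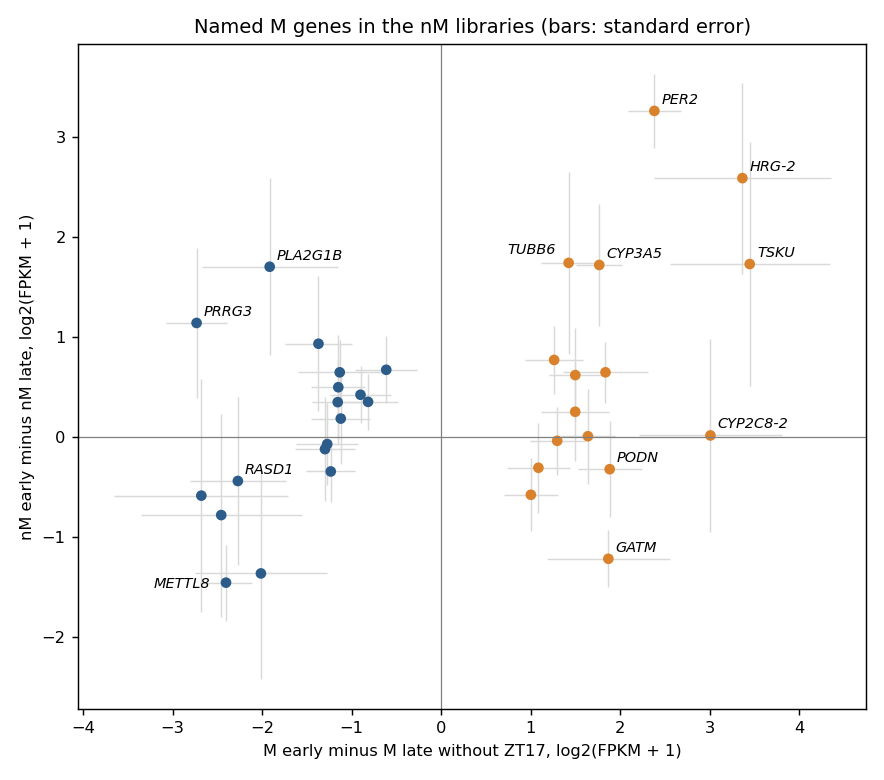
Difference between early and late birds in the M state without ZT17 (horizontal) against that in the nM state (vertical), early minus late on the log2(FPKM + 1) scale with standard errors as bars, for 34 named genes chosen on p or on the size of the M difference: 16 with higher (orange) and 18 with lower (blue) values in M early. PER2 is far from 0 in both states, and GATM and PRRG3 have opposite signs.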

How the data were processed

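Liver mRNA of 12 birds was sequenced as poly-A libraries, 1 per bird, and the 6 M livers were compared as M early and M late by their sampling times in the labels. Reads were cleaned, freed of ribosomal RNA with Bowtie2 2.0.2 and aligned with STAR to the genome of the zebra finch, another songbird, so reads that diverge from it can be lost. FPKM values per gene, which are scaled by library size, were made by the authors with Cufflinks 2.2.1. No further scaling between libraries was applied to them in the main fits. The authors also deposited log2(FPKM + 1) values, which agree within 1e-06 with log2 of the deposited FPKM in all 134952 values compared. Low FPKM values did not recover whole reads, so counts per gene, and with them counting precision, are unknown. The study lists total reads and base quality per library, which were not used in any fit.

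Genes above 0.1 FPKM in at least 5 of 6 M libraries (9801 of 18284) were tested with limma 3.58.1 (R 4.3.3) on log2(FPKM + 1), M early minus M late, two-sided, with Benjamini-Hochberg adjustment over all tested genes. Calls needed an adjusted p below 0.1 and a difference above 0.1 in size. The fit was repeated without M ZT17, in the nM birds, and as an interaction over 12 libraries. The script was tested on simulated data. P-values measure the spread between birds sampled at different times.

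Members and gene lists were chosen with earlier results of these data known. Named genes were, among those with a symbol, the 10 of smallest p in each direction without overlap, the 10 of largest difference in each direction without overlap and with a mean above 10 FPKM, all tested clock genes, up to 6 per other list by p, and 5 per direction by interaction p. Symbols came from the study's supplementary tables. Alternatives were other pseudocounts, filters, scalings and fits, and leaving out each library. A filter on genes above 0 in all 6 M libraries was chosen after seeing the data. Figures were drawn with matplotlib 3.10.9. Some results are not reported here.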

Additional observations from a re-analysis of the deposited data

Results flagged for a closer look

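The M ZT17 library lay far from the other 5 M libraries in 4 measures, by the size of its gap to the nearest library. Its FPKM values summed to 6988410, 674 tested genes were listed at 0 in it, its median rank correlation with the other M libraries was 0.791, and its median over tested genes was 3.215 on the log2(FPKM + 1) scale. Chance alone marks about 1 in 20 such groups for a single measure, and several related measures were examined. The library had already been set apart by its FPKM sum, so these flags are a description and not a test.

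In 12 named genes M early and M late did not overlap, nM early and nM late did not overlap either, and the order was opposite. Over all 9801 genes this held for 33 genes above in M and below in nM and for 21 the other way round. GATM, AASDHPPT, TRPC1, ADSL, ACRC and KLF2 were named for a small interaction p, and so were chosen for this pattern. The limma interaction, M minus nM, gave an adjusted p of 0.727 for each of the 12 (0.991 without M ZT17). The M difference was the higher one in GATM (3.7535), ACSL5 (2.4322), AASDHPPT (2.1544), TRPC1 (1.9946) and SERPIND1 (1.0219). It was the lower one in RAMP2 (-2.701), ADSL (-2.6323), KLF2 (-2.1714), ACRC (-2.0689), SARS (-2.0055), FOS (-1.8527) and MRPL45 (-1.8219). Without M ZT17 the contrast was 3.0869 for GATM and 2.1511 for AASDHPPT, but -1.2839 for RAMP2 and -0.9616 for MRPL45.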

How the results depend on the processing

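No gene was called between M early and M late under any other pseudocount, scaling, trend or stricter filter, with or without ZT17. With no filter on low values, 6 genes were called with 6 libraries and 7 without ZT17. All of these fail the filter and were listed at 0 in every bird of a period used in the fit, ALB among them. Leaving out each library gave 0 calls with 6 libraries. In the fit without ZT17 it gave 0 to 2, the 2 genes being called when ZT21 was also left out and resting on the lone ZT13 bird, whose spread is then assumed to be that of the others. The interaction called 4 genes with a pseudocount of 0.1, 5 with 0.01, 1 with FPKM above 1 in all 6 M libraries and 1 with quantile normalization, and 0 to 2 when a library was left out (calls arose without M ZT9, M ZT13, nM ZT5 or nM ZT9). None of these genes carries a symbol. Apart from a gene called only when nM ZT5 was left out, each was listed at 0 or almost 0 in every nM late bird. The filter used M libraries only, and such a value may stand for an estimate that failed. With the replicate block (time of day) the interaction called 0, with a smallest adjusted p of 0.61. There 677 genes had an unadjusted p under 0.05, more than a share of 0.05 of the tested genes.

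Genes with every M early library above every M late one numbered 690, but 458 with FPKM above 1 in all 6 M libraries, 237 at equal totals (271 without ZT17) and 954 to 1615 when a library was left out (1363 to 2170 without ZT17). Genes below numbered 505, but 298 at equal totals (1036 without ZT17, against 859 unscaled) and 813 to 1102 when a library was left out (1435 to 1996 without ZT17). Fewer birds separate more easily, by construction. Of 190 named genes, 173 kept their sign in every setting and 17 did not, and none was called in any.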
